A study of Homo sapiens with 4 samples.

Results

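The peaks described here are the spans wider than 5000 nt in the list of PRMT5-bound regions of Jurkat cells, each assigned to 1 gene identifier. The rule used only the deposited start, end and gene identifier of a peak, and none of the read values. It took 2133 of the 17355 peaks with 1 identifier (12.3%), from a list of 18993 peaks, and left out 537 peaks of that width with several identifiers. The other 15222 peaks with 1 identifier, each at most 5000 nt wide, are called narrower peaks below. The wide peaks belonged to 1884 of the 7968 genes with any such peak (23.6%), and 1665 of these genes had 1 wide peak, 193 had 2, 22 had 3 and 4 had 4. The copies of a gene on chromosomes X and Y were counted together, and CD99 and PPP2R3B reached 4 only through both copies.

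PRMT5 RIP-seq, the sequencing of RNA recovered with an immunoprecipitated protein, was done in Jurkat cells, a human T cell leukemia line that has long been in culture. All 4 libraries came from cells stimulated for 48 hours with PHA, a plant lectin that activates T cells, and crosslinked with UV light at 264 nm and 400 mJ per the labels. There were 2 PRMT5 RIP libraries, from a FLAG immunoprecipitation per the design text, and 2 input libraries, and no library of an unrelated FLAG-tagged protein was analysed here. The deposited list gives each peak 1 pooled RPM value (the number of reads divided by library size) for PRMT5 RIP and another for input. No spread between libraries is therefore known, and no p-value is given for any difference below. The depth of each library is not stated, and the list holds called peaks only. Of 16 marker genes of this cell type, 11 had a peak and 6 had a wide peak, namely CD3E, CD3G, CD247, CD28, LCK and ZAP70, while no peak was assigned to TRBC1, TRBC2, LAT, RAG1 or PTPRC. Only peaks with 1 identifier that received a symbol could be assigned. Peaks with several identifiers or without a symbol were not searched, so a missing marker is not shown to lack a peak.

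PRMT5 is an arginine methyltransferase that works in a complex with WDR77 and modifies, among other proteins, the Sm proteins of the spliceosome. Genes of higher organisms are transcribed as precursors in which short exons are separated by long introns, and splicing joins the exons. A peak that runs over many kilobases of the genome therefore can stand for reads on a few joined exons or for reads along unspliced RNA, and an uninterrupted span does not separate these. The exons of the genes were not analysed here, so that the name intron-spanning could be checked only through the width and the blocks of the peaks.

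Wide peaks often began near the start of a gene. Of the 1918 wide peaks whose gene received a RefSeq symbol, 838 (43.7%) had their 5′ end within 200 nt of the start of the RefSeq gene, and 636 of these lay within 50 nt of it. Among the narrower peaks of named genes, 26.7% lay within 200 nt of the gene start. The 3′ ends showed no such difference, with 6.73% of wide and 6.69% of narrower peaks within 200 nt of the gene end. These shares count peaks, and each gene has 1 RefSeq start. Of the 1688 named genes with a wide peak, 772 had one at the start and not also at the end. Of the 6780 named genes with any peak, 3193 had such a narrower peak, among 13325 narrower peaks. Counted by gene in this way, wide peaks were not more often at the start, so the excess holds for the count of peaks only. The part of the number of peaks per gene in the difference at the start was not tested. The following RefSeq sequences (GRCh38.p14, coding strand, 5′ to 3′) run from 30 bases before a listed start to 30 bases from it. They are shown because the 5′ end of a span that continues for over 5000 nt falls inside each window. The windows of GALNT2, UBE2S, ADISSP, EFHD2 and MCMBP also meet this and are not printed. The capitals mark the bases inside the peak.
MGMT, chr10:129467211-129467270, plus strand: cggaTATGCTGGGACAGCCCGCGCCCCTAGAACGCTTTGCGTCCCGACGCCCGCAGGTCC
CHCHD6, chr3:126704210-126704269, plus strand: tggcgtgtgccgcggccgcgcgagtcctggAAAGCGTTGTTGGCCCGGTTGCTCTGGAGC
NDUFAF2, chr5:60945175-60945234, plus strand: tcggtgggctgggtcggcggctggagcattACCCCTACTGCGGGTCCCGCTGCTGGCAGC
NDUFS4, chr5:53560609-53560668, plus strand: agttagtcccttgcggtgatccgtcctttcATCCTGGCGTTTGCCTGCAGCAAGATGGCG
RPS24, chr10:78033833-78033892, plus strand: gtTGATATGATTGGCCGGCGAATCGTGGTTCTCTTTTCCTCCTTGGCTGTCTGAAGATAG
RPL38, chr17:74203648-74203707, plus strand: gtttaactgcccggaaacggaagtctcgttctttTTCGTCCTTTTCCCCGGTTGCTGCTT
RPL35A, chr3:197950160-197950219, plus strand: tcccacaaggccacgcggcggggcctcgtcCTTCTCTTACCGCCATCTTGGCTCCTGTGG
YBX1, chr1:42682388-42682447, plus strand: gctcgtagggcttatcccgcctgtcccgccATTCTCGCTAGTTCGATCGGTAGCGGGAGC
MYBL2, chr20:43667084-43667143, plus strand: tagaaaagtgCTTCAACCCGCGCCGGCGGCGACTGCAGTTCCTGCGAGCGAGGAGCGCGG
CTNNBIP1, chr1:9910240-9910299, minus strand: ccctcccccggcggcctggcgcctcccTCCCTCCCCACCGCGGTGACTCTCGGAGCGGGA

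In CHCHD6, NDUFAF2, NDUFS4, RPL35A and YBX1 the peak began at the listed start itself. It began 4 nt inside it in RPL38, and 3, 20, 26 and 28 nt before it in CTNNBIP1, MYBL2, MGMT and RPS24. In the windows not printed, the peak began at the listed start in GALNT2. It began 2, 8, 9 and 25 nt inside it in ADISSP, MCMBP, UBE2S and EFHD2. The mRNAs of ribosomal proteins are known to begin with a run of pyrimidines after an initial C. The windows of RPS24, RPL38 and RPL35A all hold C at the listed start and C or T at each of the next 4 bases. So do those of CTNNBIP1 and of ADISSP, which encode no ribosomal protein. Of all 35116 listed starts in the table, 4.07% have these letters, as do 6.46% of the 851 listed starts of the genes with a wide peak at the gene start and 5.34% of the 1405 listed starts of the genes with a wide peak inside the gene. This describes letters only.

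The share of the locus that a span covered varied widely. The wide peaks had a median width of 10245 nt, ranged from 5002 to 299890 nt, and 16 exceeded 100000 nt. A named wide peak covered a median of 36.7% of its RefSeq gene, with a range from 1.01% to 100%. Of these peaks, 176 covered under 10%, 709 at least 50% and 171 at least 90%. The genes with a wide peak were longer, with a median locus of 29743.5 nt against 18185 nt for genes with narrower peaks only. The width rule itself favors this direction. A named gene holds all its peaks within 200 nt, so a short locus cannot have a wide peak. In 684 of the 1884 genes (36.3%) all listed peaks were wide, and wide peaks held a median of 86.7% of the PRMT5 RIP RPM and 87.8% of the input RPM assigned to their gene. At the width threshold, SLC25A39 (5002 nt), GPATCH4 (5014 nt) and TERF1 (5014 nt) were the last named peaks inside it, with RPM values for PRMT5 RIP and input of 120.59 and 71.16, 13.49 and 7.99, and 5.33 and 1.85. EIF4H (4995 nt), TMEM70 (4993 nt) and TMBIM6 (4992 nt) were the first ones outside it, with values of 5.15 and 2.11, 9.44 and 2.84, and 18.78 and 16.99.

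The widest peak with a symbol covered 98.7% of MGMT, the gene of a DNA repair protein that removes alkyl groups from guanine, at chr10:129467215-129767104. It held 62.24 RPM in the RIP and 34.15 RPM in input. CHCHD6, which encodes a subunit of the complex that shapes mitochondrial cristae, had a peak of 253334 nt over 98.9% of its locus, with 49.79 RPM in the RIP and 27.29 RPM in input. In both genes PRMT5 RIP was 1.82-fold above input. The peak of NDUFS4, a subunit of respiratory complex I, ran over 122581 nt and 99.9% of the gene, with 36.09 RPM against 20.06 RPM. That of NDUFAF2, an assembly factor of the same complex, ran over 153823 nt from the gene start and covered 74.0% of the gene, with 11.96 RPM against 5.46 RPM. GALNT2, which starts O-linked glycosylation, had a peak of 168859 nt with 13.41 RPM against 5.30 RPM; its 5′ end lay at another listed start, 9449 nt inside the RefSeq gene. The remaining 3 of the 8 widest named peaks held little signal, and 3 of the 8 widest peaks over all had no symbol. TTC34 (138070 nt) had 2.25 RPM in the RIP and 1.94 RPM in input. PTPRG, a receptor tyrosine phosphatase, had 1.15 RPM against 1.24 RPM over 186530 nt. DGKI, a diacylglycerol kinase, had 1.88 RPM against 2.19 RPM over 153410 nt. The spans of PTPRG and DGKI lay below input, began 800 nt and 3585 nt inside the gene, and overlapped a listed peak on the opposite strand.

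**Figure D1:**
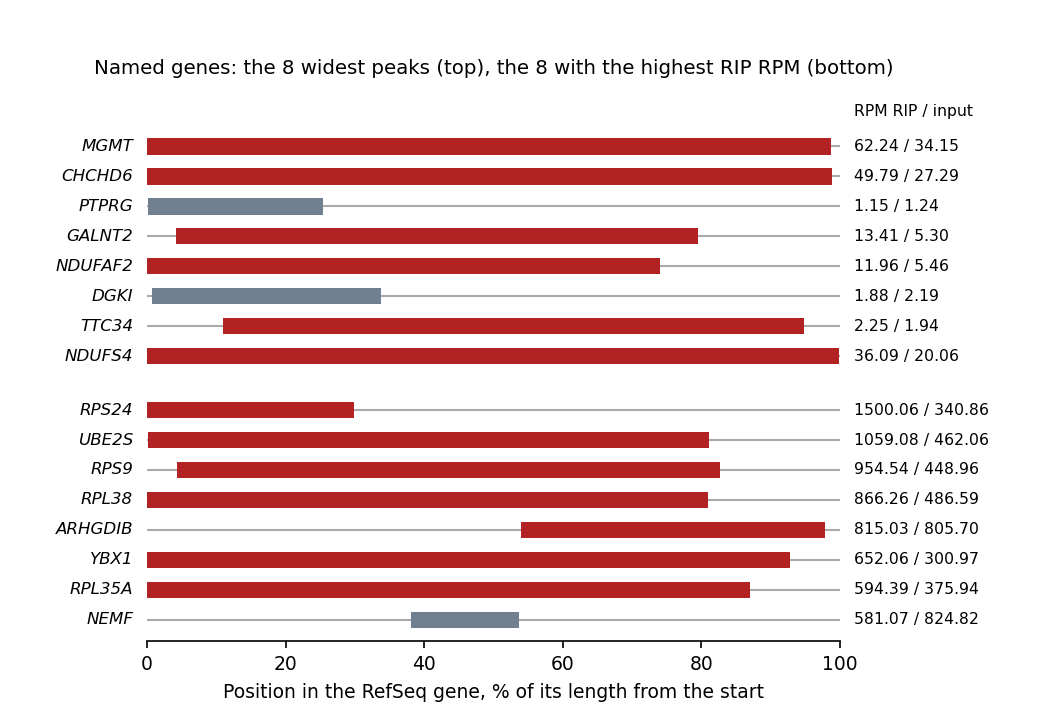
Location of 16 wide peaks in genes with a symbol, the 8 widest of these above and the 8 with the highest PRMT5 RIP RPM below. The horizontal axis is the position in the RefSeq gene as a percentage of its length from the start, the grey line is the gene, the bar is the peak (red where PRMT5 RIP exceeds input, grey where it does not), and the pooled RPM values for PRMT5 RIP and input stand at the right; the spans of MGMT, CHCHD6 and NDUFS4 fill 98.7%, 98.9% and 99.9% of their genes, and NEMF holds the lowest share of the lower group, 15.6%.

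The reads in a peak did not grow with its width. Over the 2133 wide peaks, the Spearman rank correlation of width with PRMT5 RIP RPM was 0.01, and that with the log2 ratio of PRMT5 RIP to input was -0.03. These values describe peaks of 1 pooled pair of libraries. Per kilobase of span, wide peaks held a median of 0.645 RPM in the RIP and 0.299 RPM in input, against 8.85 RPM and 3.47 RPM for narrower peaks. From the class over 5000 to 10000 nt to the class over 50000 nt, the median PRMT5 RIP value fell from 1.06 to 0.120 RPM per kilobase. As RPM did not rise with width, this fall follows from the division by the span. A span can hold long stretches outside the blocks of its peak, as described below, so these values are no density of reads.

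The shape of the spans was visible on chromosome Y alone. Of all 18993 peaks, 16 were written as several blocks, all 16 on chromosome Y, and 9 of these were wide peaks with 1 identifier. They lie in copies of pseudoautosomal genes, which chromosomes X and Y share, and the copies on X were written as 1 block. The blocks of the 9 wide peaks summed to between 25 and 1400 nt (median 425 nt), or 0.424% to 23.7% of the span. In 15 of the 16 peaks the block sum was a multiple of 25 nt, whereas none of the 16 spans was. P2RY8, with 392 nt in 2 blocks of a span of 70730 nt, was the exception. Among all peaks with 1 identifier, 97.8% of those up to 100 nt wide had a width that was a multiple of 25 nt. This share was 79.6% for over 100 to 300 nt, 28.9% for over 300 to 1000 nt, 3.59% for over 1000 to 5000 nt and 4.64% for the wide peaks.

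CD99, a surface glycoprotein of T cells, had 2 wide peaks on X with spans identical to those of 2 wide peaks on Y. The span of 35056 nt held 130.24 RPM in the RIP and 49.18 RPM in input on X. On Y it held 145.67 RPM and 69.61 RPM. The copy on Y was divided into 9 blocks of 425 nt in all, or 1.21% of the span. The log2 ratios of the copies were 1.40 and 1.07. The second span of 7474 nt held 100.95 RPM and 53.29 RPM on X, and 108.56 RPM and 56.65 RPM in 3 blocks on Y. SLC25A6, a mitochondrial ADP/ATP carrier, had 355.63 RPM and 204.94 RPM on X over 5911 nt, and 365.9 RPM and 214.65 RPM on Y in 4 blocks of 1400 nt. Of the 12 wide peaks on Y, 3 were written as 1 block. The copies on X and Y are not independent, and how reads that fit both were counted is not stated.

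Wide peaks held more reads than narrower peaks, in both kinds of library. The median was 7.41 RPM in the RIP and 3.55 RPM in input, against 1.5 RPM and 0.620 RPM for narrower peaks. In all, they took 10.6% of the PRMT5 RIP RPM and 10.8% of the input RPM of the peaks with 1 identifier. The median log2 ratio, with 0.01 RPM added to both values, was 1.00 for wide peaks (quartiles 0.59 and 1.46) and 1.14 for narrower peaks (0.66 and 1.72). PRMT5 RIP was at least 2-fold above input in 49.9% of the wide peaks and in 57.9% of the narrower peaks, and the background over all 17355 peaks with 1 identifier was 56.9%. PRMT5 RIP lay below input in 4.03% of wide and 3.48% of narrower peaks.

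The comparison turned around at equal input. The log2 ratio declined with input RPM among wide peaks (rank correlation -0.32) and among narrower peaks (rank correlation -0.46), and both carry input in the ratio itself. Below 0.1 RPM of input, 38 of 38 wide peaks and 99.8% of the 2175 narrower peaks were at least 2-fold above input, and the list of called peaks holds few others at that level. Each wide peak was therefore set against the narrower peaks with an input RPM within 10% of its own. Its log2 ratio exceeded the median of those peaks in 1303 of 2133 cases (61.1%), by a median of 0.18 (quartiles -0.23 and 0.57). The difference was 0.18 for 1040 peaks over 5000 to 10000 nt, 0.17 for 705 over 10000 to 20000 nt, 0.20 for 327 over 20000 to 50000 nt and 0.09 for 61 peaks over 50000 nt. Among the last of these, 36.1% overlapped a peak on the opposite strand, against 20.7% of all wide peaks. When peaks that overlap one on the other strand were left out of both the wide and the narrower peaks, the difference was 0.24.

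**Figure D2:**
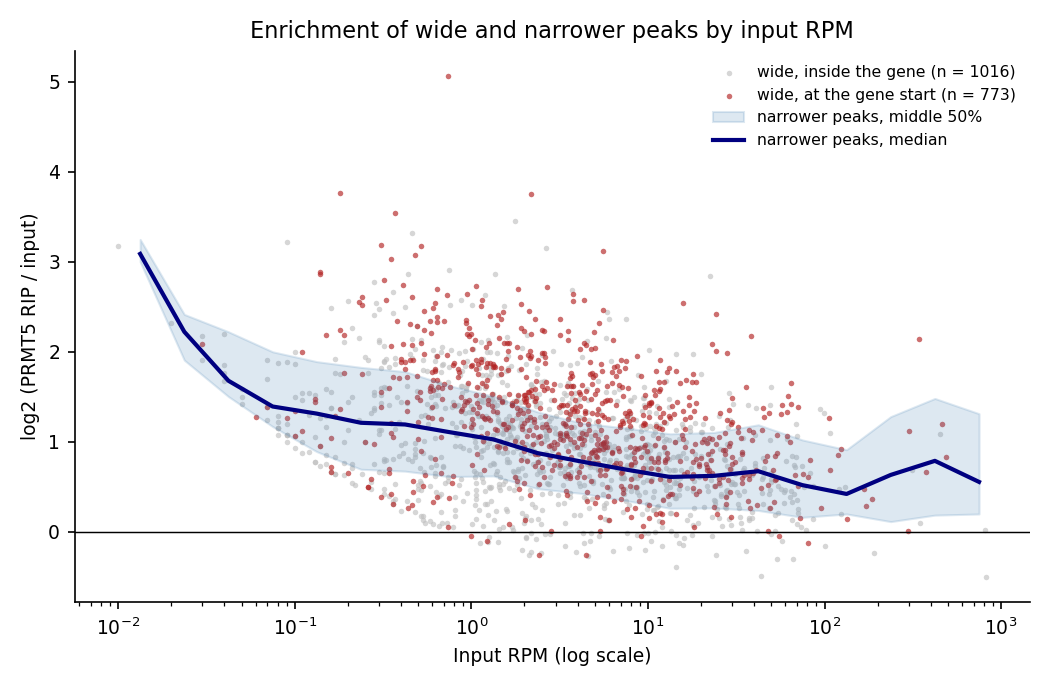
Log2 ratio of PRMT5 RIP to input against input RPM (log scale) for wide peaks at the gene start (red) and inside the gene (grey), 1 point per peak. The blue line and band are the median and the middle 50% of the narrower peaks in classes of input RPM; the line falls as input rises, and 601 of the 773 red points lie above the median of the narrower peaks matched to them on input.

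The position in the gene separated the wide peaks more than their width did. The 773 wide peaks at the gene start had a median of 9.03 RPM in the RIP and 3.85 RPM in input, and a median log2 ratio of 1.24. The 1016 wide peaks away from both ends of the gene had medians of 5.44 RPM and 2.64 RPM and a log2 ratio of 0.88. The difference from input-matched narrower peaks was 0.38 at the start, positive for 77.7% of the peaks, and 0.03 inside, positive for 51.5%. PRMT5 RIP was below input in 0.906% of the wide peaks at the start and in 4.82% of those inside. The 64 wide peaks at the gene end had a log2 ratio of 0.84 at a median input of 28.7 RPM. The 65 that reached from the start to the end had 0.89 at a median input of 55.5 RPM. Their differences from input-matched narrower peaks were 0.24, positive for 64.1%, and 0.28, positive for 78.5%. A peak on the opposite strand overlapped 15.7% of the wide peaks at the start and 15.3% of those inside. Promoter GC content, known for 85.0% and 85.5% of the genes of the same 2 groups, had medians of 66.3% and 65.7%.

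Narrower peaks showed the same order. Their median log2 ratio was 1.54 for 3366 peaks at the gene start, 1.03 for 9067 inside and 0.82 for 704 at the gene end. When the matched narrower peaks were taken from the same position as well, the difference was 0.00 for wide peaks at the start, with 379 of 758 above (50%). It was 0.17 inside, with 641 of 1007 above (63.7%), and 0.38 at the gene end, with 35 of 56 above (62.5%). For the spans from the start to the end it was -0.24, with 3 of 8 above, as the others had too few matches.

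The genes with both kinds of peak gave comparisons within a transcript. The median ratio of the wide peaks exceeded that of the narrower peaks in 626 of 1207 genes (51.9%), with a median difference of 0.03. Where the wide peak lay at the gene start, it exceeded the narrower peaks in 329 of 439 genes (74.9%), by a median of 0.46. Where it lay inside, it exceeded a narrower peak at the start of its own gene in 51 of 346 genes (14.7%), with a median difference of -0.73. Against narrower peaks inside its own gene it was higher in 307 of 566 genes (54.2%), with a median difference of 0.05. A wide peak at the gene end exceeded the narrower peaks in 17 of 48 genes (35.4%), with a median difference of -0.35. Narrower peaks at the start exceeded narrower peaks inside or at the end in 81.2% of 1813 genes. The median input in the first of these comparisons was 3.87 RPM per gene for wide and 0.960 RPM for narrower peaks, and no matching on input was made within genes.

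Ribosomal protein transcripts made up 4 of the 8 named wide peaks with the highest RPM in PRMT5 RIP. RPS24, a protein of the small ribosomal subunit, had 1500.06 RPM in the RIP and 340.86 RPM in input over 6877 nt from the gene start, a 4.4-fold difference. RPS9 had 954.54 RPM against 448.96 RPM, RPL38 866.26 RPM against 486.59 RPM, and RPL35A 594.39 RPM against 375.94 RPM. The fold of these 3 lay between 1.58 and 2.13, below that of RPS24. UBE2S, a ubiquitin-conjugating enzyme of the anaphase-promoting complex, had 1059.08 RPM against 462.06 RPM, over a span that holds 1 small nucleolar RNA gene. YBX1, an RNA-binding cold shock protein, had 652.06 RPM against 300.97 RPM over 92.7% of its gene. These 6 peaks exceeded input and their input-matched narrower peaks, and those of UBE2S and RPL35A overlapped a peak on the opposite strand. ARHGDIB stood at input level, with 815.03 RPM against 805.70 RPM. NEMF, a factor of ribosome-associated quality control, was below it, with 581.07 RPM in the RIP and 824.82 RPM in input. Both of these spans lay away from the RefSeq gene start, 10580 nt and 26904 nt inside the gene, although that of ARHGDIB began 85 nt from another listed start.

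Among named wide peaks with at least 1 RPM in input, that of MYBL2, a transcription factor of the cell cycle, had the highest ratio. It held 29.40 RPM in the RIP and 2.18 RPM in input, a log2 ratio of 3.75, over 14711 nt from the gene start. DNAJB1, a co-chaperone of the heat shock response, had 19.37 RPM against 1.76 RPM. PFDN2, a subunit of the prefoldin chaperone, had 53.23 RPM against 5.95 RPM over 99.9% of its gene. EFHD2, a calcium-binding protein, had 48.54 RPM against 5.59 RPM, and TXNL4A, a component of the U5 snRNP, had 161.53 RPM against 22.58 RPM over 52629 nt. ADISSP, MCMBP and CTNNBIP1 completed the 8 highest named peaks, with log2 ratios of 3.16, 2.86 and 2.74. Of these 8 peaks, none overlapped a peak on the opposite strand. The spans of DNAJB1, TXNL4A, MCMBP and ADISSP began 34255, 3396, 746 and 637 nt inside the RefSeq gene. Those of MCMBP and ADISSP began 8 and 2 nt from another listed start. TM9SF3, chosen after its value was seen, had the highest ratio of the named wide peaks at any input, with 25.1 RPM against 0.740 RPM over 10254 nt from the gene start and a log2 ratio of 5.07.

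The 8 lowest ratios of named wide peaks, at the same minimum of input, all belonged to spans away from the gene start, that of ERGIC3 by 762 nt. Of all 1918 named wide peaks, 1016 lay away from both ends of the gene. So did DNAJB1, ADISSP, MCMBP and TXNL4A among the 8 highest ratios. Of the 8 lowest over all wide peaks, 3 had no symbol, and 2 of these overlapped a peak on the opposite strand. The 8 named ones ran from -0.51 for NEMF to -0.25 for ERH. A wide peak at the gene start came close to ERH, with -0.2535 (2.02 RPM against 2.41 RPM) beside -0.2540. RBFOX2, a splicing regulator, had 11.01 RPM in the RIP and 14.47 RPM in input. PSMB2, a proteasome subunit, had 53.72 RPM against 66.11 RPM, and ERGIC3, a protein of the early secretory pathway, had 43.70 RPM against 53.71 RPM. SOD2, the mitochondrial superoxide dismutase, with 3.80 RPM against 4.58 RPM, and BTD, which recycles biotin, with 1.78 RPM against 2.13 RPM, overlapped a peak on the opposite strand. LOC107984974 stood at -0.49, and ERH, which encodes a small nuclear protein, had 20.46 RPM against 24.40 RPM. None of these 8 named peaks except SOD2 and BTD had such an overlap.

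Genes with several wide peaks showed how the ratio varied along a transcript. CTNNBL1, a spliceosome-associated protein, had 4 wide peaks, and the log2 ratios in order from the gene start were 1.89, 1.68, 0.86 and 0.79, with 1.58, 8.29, 7.48 and 16.90 RPM in the RIP and 0.420, 2.58, 4.11 and 9.74 RPM in input. DTNBP1, a component of the complex that forms lysosome-related organelles, had 1.92 at the start and then 0.99, 1.33 and 1.07. ANXA11, a calcium-dependent membrane-binding protein, had 1.97, 1.63 and 0.27. PPP2R3B, a regulatory subunit of protein phosphatase 2A, had on X 1.17 at the start and 0.43 further inside, and on Y 0.78 for the span at the start and 1.62 for the one further inside. The first listed span had the highest ratio in CTNNBL1, DTNBP1, ANXA11 and the X copy of PPP2R3B, and not in its Y copy. In CTNNBL1 input also rose from the first to the fourth span.

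Over 10 lists of genes with known functions, the share of genes with a wide peak ran from 7 of 65 to 41 of 88. For reference, 1688 of 6780 named genes with a peak (24.9%) had a wide one, with a median log2 ratio of 1.03 for wide and 1.14 for narrower peaks and a median input-matched difference of 0.20, and 1216 of the 1918 wide peaks (63.4%) lay above their matched peaks. Of the cytosolic ribosomal proteins, whose loci are short (median 5057 nt), 7 of 65 had a wide peak. The median ratio of these 7 was 0.94 against 0.71 for narrower peaks of the list, and all 7 exceeded their input-matched peaks. Of the mitochondrial ribosomal proteins, 20 of 66 had one, with a median of 0.60 against 0.82. MRPS15 had 159.18 RPM against 94.52 RPM over 99.4% of its gene, and MRPL21 127.51 RPM against 60.99 RPM.

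The pre-mRNA splicing list, which covers spliceosome subunits, had the largest share of genes with a wide peak among the 10 lists, 41 of 88. Its wide peaks had a median log2 ratio of 0.98 against 0.69 for its narrower peaks and a matched difference of 0.36, with 28 of 46 above (60.9%). LSM7, an Sm-like protein, had 311.28 RPM in the RIP and 76.72 RPM in input over 100% of its gene. SF3A2, a subunit of the U2 snRNP, had 251.33 RPM against 44.90 RPM over 99.4%. Both of these spans overlapped a peak on the opposite strand. SON had the highest ratio of the list, 2.65, at 6 RPM against 0.950 RPM, and SF3A1 the lowest, -0.12, at 1.03 RPM against 1.12 RPM.

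Vesicle traffic had 40 of 115 genes with a wide peak, a median ratio of 1.15 against 1.01, and 35 of 42 wide peaks above the matched ones (83.3%), with a median difference of 0.33. The list was matched by symbol and holds SEC1P, a transcribed pseudogene that shares the letters of its name only, and without its peak 35 of 41 were above. COPE, a coatomer subunit, had 247.10 RPM against 142.64 RPM, and CHMP4B, a subunit of ESCRT-III, had 109.17 RPM against 35.79 RPM over 98.5% of its gene. In this list 26 of the 42 wide peaks lay at the gene start. Chromatin regulators had 27 of 88 genes, a ratio of 1.19 against 1.31, and a difference of 0.41, with 24 of 33 above (72.7%). SMARCB1, a SWI/SNF subunit, had 71.71 RPM against 34.70 RPM, and HDAC1, a histone deacetylase, 42.43 RPM against 28.43 RPM. KDM3B, a histone demethylase, had the highest ratio of that list, 3.03, at 2.93 RPM against 0.350 RPM.

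In the following lists the median ratio of the wide peaks and the matched difference lay below those of all named genes. The same held for mitochondrial ribosomal proteins, T cell receptor signaling and ubiquitin-conjugating enzymes. For the respiratory chain and ATP synthase, 24 of 66 genes had a wide peak, with a median ratio of 0.51 against 0.67 and a matched difference of -0.18, and 12 of 27 were above. ATP5PD had 216.71 RPM against 114.97 RPM and NDUFB9 216.59 RPM against 119.84 RPM, whereas NDUFS6 reached a log2 ratio of 2.54 at 91.45 RPM against 15.75 RPM. For glycolysis, 6 of 15 genes had one, the ratio was 0.44 against 0.78, and 1 of 7 was above, that of PFKP, a phosphofructokinase, at 13.62 RPM against 4.53 RPM. PGAM1, phosphoglycerate mutase, had 237.02 RPM against 184.57 RPM, and PKM, pyruvate kinase, 89.91 RPM against 70.13 RPM. The proteasome had 17 of 38 genes, a ratio of 0.62 against 0.58 and a difference of 0.02, with PSMC3 at 249.14 RPM against 85.34 RPM and PSMD8 at 245.09 RPM against 94.86 RPM.

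For T cell receptor signaling, 17 of 45 genes had a wide peak, with a ratio of 0.77 against 1.07 and a difference of -0.01. MAP2K2 had 177.64 RPM against 94.86 RPM over 99.8% of its gene. CD3E, a subunit of the T cell receptor complex, had 115.66 RPM against 96.10 RPM over 95.5% of its gene, and thus lay 0.30 below its matched peaks on the log2 scale. MAP2K1 had the highest ratio of the list, 2.58, at 6.92 RPM against 1.15 RPM. Ubiquitin-conjugating enzymes had 9 of 25 genes, a ratio of 0.81 against 1.07 and a difference of 0.09, with UBE2L3 at 167.93 RPM against 120.73 RPM. The lists were matched by symbol, and those matched by the first letters of a symbol took in 14 lncRNA genes or pseudogenes with 2 wide peaks. Without these, a choice made after seeing the data, 41 of 84 genes of the splicing list and 27 of 83 chromatin regulators had a wide peak, and the matched difference of the respiratory chain and ATP synthase was -0.14, with 12 of 26 above. The lists differ in locus length, input level and the share of spans at the gene start, and the part of each in these values was not tested.

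Spans of genes that do not encode proteins stood lower. Of the named wide peaks, 1828 lay in protein-coding genes, 75 in lncRNA genes and 14 in transcribed pseudogenes. The median log2 ratio was 1.04 in protein-coding genes and 0.65 in lncRNA genes, whereas narrower peaks in lncRNA genes had 1.37. Wide lncRNA spans met a peak on the opposite strand in 76.0% of cases, against 13.0% of those in protein-coding genes. Over all genes, the 441 wide peaks with such an overlap had a median log2 ratio of 0.75 and a matched difference of -0.07, against 1.05 and 0.22 for the 1692 without one. For narrower peaks these medians of the ratio were 1.13 and 1.14. The lncRNA genes named next were chosen after their values were seen, by their RPM in PRMT5 RIP. TXNRD1-AS1 had 22.38 RPM against 23.15 RPM, and its span overlapped an opposite-strand peak. ZFAS1, a host of small nucleolar RNAs, had 21.29 RPM against 23.08 RPM with no such overlap. The spans next in that order exceeded input. They were ZNF433-AS1 (18.26 RPM against 11.14 RPM), MYL6B-AS1 (16.59 and 9.57 RPM), CASC15 (13.46 and 7.53 RPM) and NAPA-AS1 (11.01 and 7.29 RPM). PRMT5 RIP lay below input in 14.7% of the 75 wide lncRNA spans. The assignment of reads to strands in counting is not stated, so that reads of a gene and its antisense partner may not be separated.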

How the data were processed

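PRMT5 RIP and input RNA of Jurkat cells were sequenced in 4 libraries, 2 of each. The authors deposited 1 peak list with pooled RPM values, rounded to 0.01, and the p-value, FDR and log2 fold change of their peak caller, which were not used except for FDR as a filter. The submitters' processing notes name fastp, HISAT2 and hg38, without versions. The peak caller, the annotation, the counting of strands and the pooling are not given in the sources used here. Whole reads could not be recovered, so depth is unknown.

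The log2 ratio was taken with a pseudocount of 0.01. A wide peak was matched to narrower peaks within 10% of its input RPM, at least 10 of them, and the difference is its ratio minus their median. Identifiers were named through RefSeq genes of GRCh38.p14 that hold all their peaks within 200 nt, on the same strand where it was known, and no other identifier's. This named 1918 of 2133 wide peaks, 270 of them without strand. A peak end within 200 nt of a gene end was taken as lying there. Starts are 1-based.

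Named genes were the 8 widest, the 8 highest in PRMT5 RIP, the 8 highest and 8 lowest ratios with input of at least 1 RPM, the 5 genes with the most wide peaks, 3 on each side of the width threshold, the 2 highest of each list, and CD99. Among genes with 3 wide peaks, ANXA11 was taken by alphabetical order. The highest and lowest ratio of a list were added later. The members and the lists were chosen with earlier results of these data known. The matching was checked on simulated ratios into which no error of input entered, so the check does not cover input shared by the ratio and the matching. Python 3.11.15, pandas 2.3.3, numpy 2.4.6 and scipy 1.17.1 were used.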

Additional observations from a re-analysis of the deposited data

How the results depend on the processing

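No paired analysis was possible because the list holds 1 pooled value for the 2 PRMT5 RIP libraries and 1 for the 2 input libraries, and no library could be left out. The number of wide peaks was 3911 above 2000 nt and 1093 above 10000 nt. The median log2 ratio, 1.00, was 0.94 and 0.74 with pseudocounts of 0.1 and 1, 0.93 with at least 1 RPM in input, 1.05 without opposite-strand overlaps and 1.04 in protein-coding genes. The share at least 2-fold above input was 46.5% and 30.005% with those pseudocounts, 45.2% with at least 1 RPM in input, 53.1% without opposite-strand overlaps and 52.2% in protein-coding genes.

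The median matched difference, 0.18, stayed positive in all 16 alternatives. The differences of the 4 width classes stayed positive with both other pseudocounts. The overall difference was 0.14 at FDR of at most 1e-10, 0.14 with a pseudocount of 1, 0.24 without opposite-strand overlaps, 0.12 when matched on the mean of both log2 RPM values, 0.40 against narrower peaks of at most 300 nt and 0.13 against genes without a wide peak. The share above, 61.1%, was 63.3% with at least 1 RPM in input, 66.5% without opposite-strand overlaps, 56.3% when matched on the mean, 74.1% against peaks of at most 300 nt, 58.4% against genes without a wide peak and 64.3% in protein-coding genes. The share of genes whose wide peaks exceeded their narrower ones, 51.9%, was 48.8% at FDR of at most 1e-10, 58.5% and 68.1% with pseudocounts of 0.1 and 1, 59.9% with at least 1 RPM in input and 55.05% without opposite-strand overlaps.

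The following alternatives for position were chosen after seeing the data. The difference at the gene start, 0.38, was 0.30 with a pseudocount of 1, 0.43 without opposite-strand overlaps, 0.32 within 1000 nt and 0.000199 against narrower peaks of the same position. The difference inside, 0.03, was -0.043 when matched on the mean, -0.022 with any listed start, 0.077 within 50 nt, 0 within 1000 nt and 0.17 against the same position, so that it has no settled sign. The share of the locus covered, 36.7%, was 76.5% of the span of all peaks of the gene and 45.8% when the wide peaks of a gene were joined. Depth limits the peaks with little input, where the rounding of RPM to 0.01 is coarse.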

Other observations

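The 537 peaks wider than 5000 nt with several gene identifiers, which the rule left out, had a median of 13.6 RPM in the RIP and 7.75 RPM in input, a median width of 14703 nt and a median log2 ratio of 0.74. PRMT5 RIP was at least 2-fold above input in 36.3% of them, and below it in 8.94%.

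Of the 2133 wide peaks, 31 held a small RNA gene of RefSeq on either strand. The 16 that held a small nucleolar RNA gene had a median of 65.4 RPM in PRMT5 RIP, 28.8 RPM in input and a log2 ratio of 1.03. The 9 that held a microRNA gene had 4.27 RPM, 2.53 RPM and 0.37, and 66.7% of these overlapped a peak on the opposite strand.

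Wide peaks that covered more of their locus held more reads. The median was 2.54 RPM in PRMT5 RIP for the 176 peaks over up to 10% of the gene, 11.8 RPM for the 364 over 50% to 75%, and 56.9 RPM for the 171 over more than 90%. The difference from input-matched narrower peaks was 0.00, 0.26 and 0.28 in these classes.

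The share of wide peaks among peaks with 1 identifier was 32.4% on chromosome Y (12 of 37), 18.5% on chromosome 10 (90 of 486) and 9.04% on chromosome 17 (119 of 1316), and the median locus of the genes with a wide peak was 43445 nt on chromosome 10 and 27058 nt on chromosome 17.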
